A study of Capsicum annuum with 4 samples.

Results

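The genes described here are the ethylene perception, ethylene response and methionine supply genes among the pepper homologs of tomato ripening genes that the study listed. They were chosen by name from that list: the ethylene receptor ETR4, the ethylene response factor ERF6 and the 2 copies of cystathionine gamma-synthase, CGS. They are 4 of the 38 genes of the list and 4 of the 35884 genes in the count files. The study describes a larger set of tomato ripening genes and pepper candidates than this list holds, and ranks within the list cover its 38 genes alone. The samples were whole fruits (pericarp, placenta and seeds) of Chiltepin, a wild pepper (Capsicum annuum var. glabriusculum, labelled wild type), grown without treatment in a greenhouse from seed collected in the wild. Mature red fruits at 68 days after anthesis (DAA) were compared with immature green fruits at 20 DAA, with 2 libraries per stage. Each library held the pooled RNA of 6 fruits, and the second replicate came from another collection of fruits.

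Ethylene is made from methionine by way of S-adenosylmethionine. CGS joins an activated homoserine to cysteine and so commits carbon to methionine. Ethylene receptors sit in the membrane and repress the response while no hormone is bound, acting through the kinase CTR1, and binding of ethylene lifts this block and lets ethylene response factors change transcription. In tomato, a climacteric fruit, a burst of ethylene drives ripening, whereas pepper ripens without such a burst and is called non-climacteric. The data were read for whether transcripts of the chosen genes of this pathway differed between green and red fruits. Genes of the enzymes that turn S-adenosylmethionine into ethylene were not read here. The study reports ACCO1, ACCO2 and a copy of ACO3, which it relates to ethylene biosynthesis, as downregulated in mature Chiltepin fruits.

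The libraries held between 12139415 and 26130664 counts on genes, and replicate 1 at 68 DAA was the least deeply sequenced. Levels are given as CPM, counts scaled to a common library size by the trimmed mean of M values (TMM), and between genes as TPM, which also divides by the length of the gene model. The quasi-likelihood test of edgeR was run on every gene whose average CPM over the 4 libraries, as edgeR computes it, was 1 or more on the log2 scale. A gene was called where its p, adjusted by the Benjamini-Hochberg method (FDR), was under 0.01. The libraries matched their stage labels. PSY1 and SGR1, genes of carotenoid synthesis and chlorophyll breakdown, were higher at 68 DAA (log2 fold changes of 6.27 and 7.98), and GLK2, a regulator of chloroplast development, was lower (-8.99). PG2, a gene of fruit softening, had 103119 and 201559 counts at 68 DAA, against 3 and 0 counts at 20 DAA. In whole fruits, fewer cells of a type and less RNA per cell cannot be told apart.

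Of the 4 genes, 3 passed the expression limit and 1 was called, ETR4, which was lower at 68 DAA. Over all 17160 tested genes, 57.7% were called, 32% of them as lower and 25.7% as higher at 68 DAA (shares of the tested genes), so 1 call among 3 tested genes is not more than the background. None of the 4 genes was both called and changed 4-fold or more, the size limit that the study used for induced and repressed genes, and 26.9% of all tested genes did (18.7% lower and 8.22% higher at 68 DAA). The 3 tested genes had an unadjusted p between 0.000652 and 0.0125. The libraries of the stages did not overlap for any of them, which also held for 87.1% of all tested genes. Their median log2 fold change was -0.63, beside -0.04 over all tested genes.

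**Figure D1:**
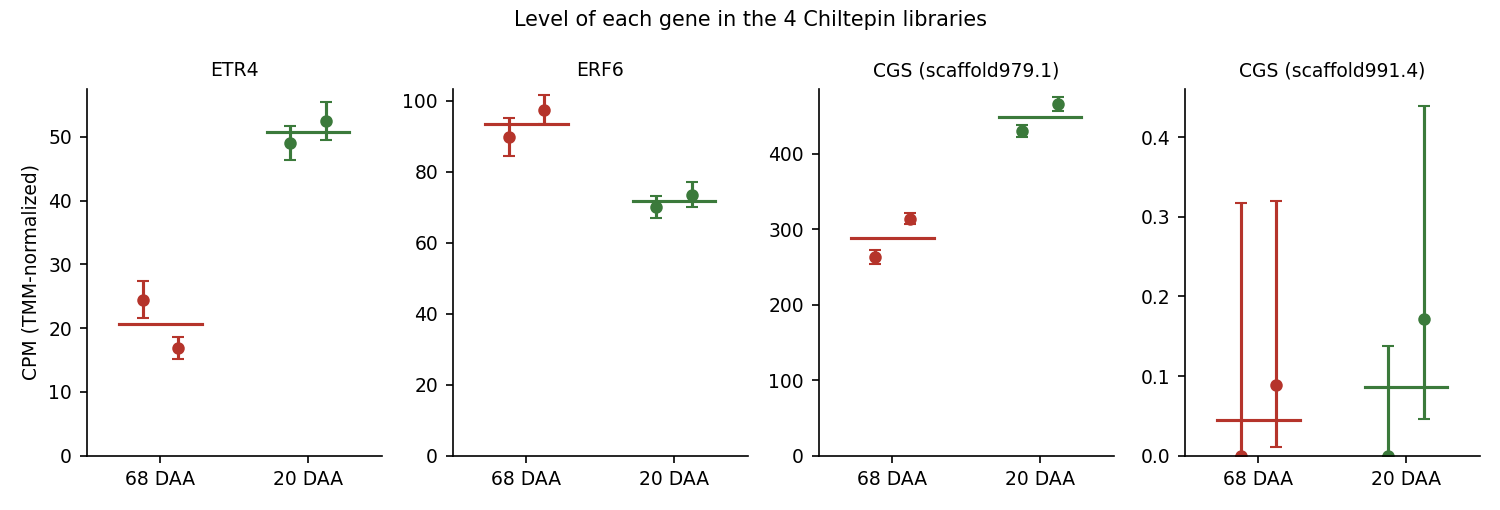
CPM of the 4 genes in each library, at 68 DAA (red, left) and 20 DAA (green, right). Points are single libraries, bars are exact 95% Poisson intervals that cover counting error only, and lines are stage means. ETR4 and the abundant CGS copy stand lower at 68 DAA, ERF6 stands higher, and the second CGS copy is close to 0 at both stages.

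ETR4 encodes a receptor that binds ethylene, and genes of other ethylene receptors were not read here. In tomato, reduced levels of ETR4 hasten ripening. The pepper gene (CA.PGAv.1.6.scaffold374.1) lies on chromosome 6 of the CM334 genome, version 1.6, from 149763980 to 149766640 on the minus strand. Its model has 2 coding exons that are separated by an intron of 369 bp and add up to 764 codons.

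ETR4 had 24.4 and 16.8 CPM in replicates 1 and 2 at 68 DAA, against 49.0 and 52.5 CPM at 20 DAA. Both mature libraries were below both green ones. The mean was 20.6 ± 5.34 CPM at 68 DAA and 50.7 ± 2.47 CPM at 20 DAA (SD, n = 2 each), so that 40.3% of the green level was left in red fruits. ETR4 transcripts fell 2.48-fold, or -1.31 ± 0.27 on the log2 scale (± standard error), with an edgeR adjusted p of 0.00158.

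The replicates of ETR4 rested on 284 and 381 counts at 68 DAA, against 1315 and 1225 counts at 20 DAA. Their log2 ratio, replicate 2 over replicate 1, was -0.53 at 68 DAA and 0.10 at 20 DAA. A wider spread at 68 DAA held for genes in general, with an SD of this ratio over all tested genes of 0.553 at 68 DAA and 0.320 at 20 DAA. Of all tested genes, 19.0% differed at least as much as ETR4 between the replicates at 68 DAA. With 1 library left out in turn, the log2 fold change lay between -1.52 and -1.03. The call was lost without replicate 2 at 20 DAA (log2 fold change -1.28, adjusted p = 0.0123 from edgeR), a fit that called 6049 of all genes, against 9904 with every library.

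The step below the receptors is the kinase CTR1, which keeps the ethylene response off while the receptors are free of hormone. The study's list names 3 pepper genes for the tomato kinase TCTR1, and none of them was called. TCTR1 (scaffold824.28) had 37.6 and 59.3 CPM at 68 DAA, against 40.6 and 39.9 CPM at 20 DAA. TCTR1 (scaffold1138.14) had 38.7 and 36.8 CPM at 68 DAA, against 35.4 and 40.9 CPM at 20 DAA. In these 2 genes the stages overlapped. TCTR1 (scaffold1138.13) had 13.4 and 19.8 CPM at 68 DAA, against 12.7 and 13.2 CPM at 20 DAA, without overlap.

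For the kinase genes the intervals set how large a change could have been missed. By limma-voom, the 95% interval of the log2 fold change ran from -0.23 to 0.78 for TCTR1 (scaffold824.28), from -0.31 to 0.28 for TCTR1 (scaffold1138.14) and from -0.089 to 0.90 for TCTR1 (scaffold1138.13). A 2-fold change in either direction lies outside all of them. Without replicate 1 at 68 DAA, TCTR1 (scaffold824.28) and TCTR1 (scaffold1138.13) were called as higher, with log2 fold changes of 0.63 and 0.68 (adjusted p = 0.00131 and 0.00408 from edgeR). Their values in red fruits thus depended on which library was read.

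Within a library, the level of ETR4 per length was compared with that of the kinase genes. ETR4 stood at 8.79 and 5.44 TPM at 68 DAA, against 20.8 and 22.2 TPM at 20 DAA. The 3 TCTR1 genes together stood at 42.6 and 46.0 TPM at 68 DAA, against 48.6 and 52.5 TPM at 20 DAA. Of these, scaffold1138.13 and scaffold1138.14 are neighbouring models 980 bp apart, listed with the same homolog. Whether they are parts of a single gene was not tested. If they are, the sum counts that gene in both models and the ratios below are too low. The ratio of ETR4 to summed TCTR1 was 0.206 and 0.118 at 68 DAA, against 0.428 and 0.423 at 20 DAA. The stages did not overlap, but an exact permutation test of 2 against 2 libraries has 0.333 as its smallest two-sided p, and the ratios are given as a description.

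**Figure D2:**
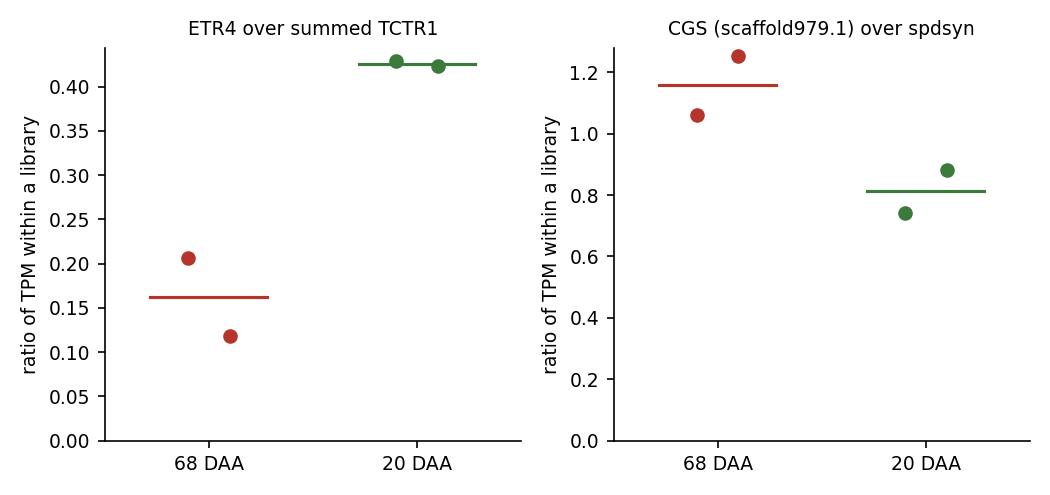
Ratio of TPM within each library, for ETR4 over the sum of the 3 TCTR1 genes (left) and for the abundant CGS copy over spermidine synthase, spdsyn (right), at 68 DAA (red) and 20 DAA (green). Points are libraries and lines are stage means. The ETR4 ratio is 0.206 and 0.118 at 68 DAA, below 0.428 and 0.423 at 20 DAA. The ratio of the CGS transcript to the spdsyn transcript is above 1 only in the libraries at 68 DAA.

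ERF6 encodes a transcription factor of the ethylene response, known in tomato to hold down carotenoid and ethylene synthesis. The pepper gene (CA.PGAv.1.6.scaffold14.17) spans 126467683 to 126472417 of chromosome 1, on the minus strand. Its 2 coding exons hold 267 codons around an intron of 3934 bp.

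ERF6 had 89.7 and 97.4 CPM at 68 DAA, against 70.1 and 73.6 CPM at 20 DAA. Both red libraries were above both green ones. The mean was 93.6 ± 5.47 CPM at 68 DAA and 71.8 ± 2.46 CPM at 20 DAA (SD, n = 2 each). This difference of 0.38 ± 0.069 on the log2 scale (± standard error) did not pass the limit of 0.01, at an edgeR adjusted p of 0.0198. The 95% interval by limma-voom ran from 0.13 to 0.63, so that a 2-fold change in either direction lies outside it. Without replicate 1 at 68 DAA the log2 fold change was 0.51 and passed (adjusted p = 0.0036, edgeR).

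The size of the ERF6 difference depended on the scaling of the libraries. With library totals in place of TMM it was 0.12 on the log2 scale (adjusted p = 0.367, edgeR), in a fit in which the median of all tested genes moved to -0.31. Relative to that median, ERF6 stood at 0.42 with TMM and 0.43 with totals. In TPM the gene had 92.5 and 90.1 at 68 DAA, against 85.4 and 89.2 at 20 DAA. ETR4 stood at -1.27 relative to the median with TMM and at -1.25 with totals.

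**Figure D3:**
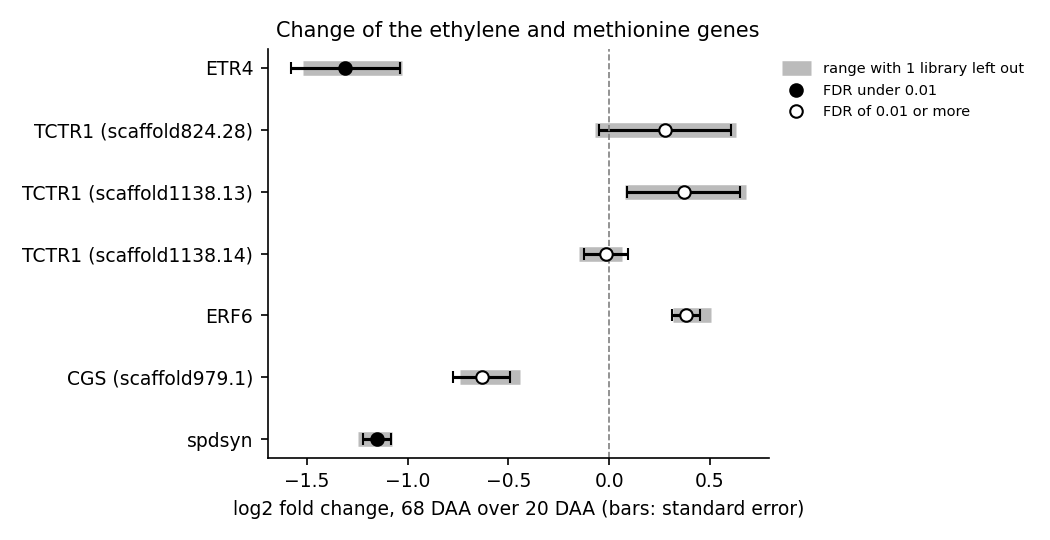
Log2 fold change of the 3 tested genes and of the kinase and spermidine synthase genes, 68 DAA over 20 DAA. Points are the fitted values, bars the standard error between replicates, and grey bands the range with 1 library left out in turn; filled points had an FDR under 0.01. Only ETR4 and spdsyn are filled, at -1.31 and -1.15, and the values of ERF6 and CGS lie to the right and left of 0.

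CGS is the entry enzyme of methionine synthesis, and methionine is the source of the S-adenosylmethionine that ethylene is made from. The first pepper copy (CA.PGAv.1.6.scaffold979.1) spans 107645885 to 107652004 of chromosome 2, plus strand, and has 546 codons in 11 coding exons. The second (CA.PGAv.1.6.scaffold991.4) spans 215716380 to 215721594 of chromosome 12, minus strand, and has 550 codons in 4 coding exons. The gene model of the second copy came from ab initio prediction, and RefSeq (assembly UCD10Xv1.1) types the homolog that the study lists for it as a pseudogene. The homologs of the other 3 genes are given as protein-coding.

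Nearly all CGS counts fell on the first copy. CGS (scaffold991.4) had 0 and 2 counts at 68 DAA, against 0 and 4 counts at 20 DAA. The exact 95% Poisson intervals, which cover counting error only, reached up to 0.317 and 0.319 CPM at 68 DAA, against 0.137 and 0.438 CPM at 20 DAA. The copy was under the expression limit and was not tested, and a difference between the stages was not detectable at this depth. Its share of the summed CGS level per length was 0.0279% in replicate 2 at 68 DAA and 0.0365% in replicate 2 at 20 DAA. How alike the copies are in sequence was not analysed here, so whether reads of one were counted on the other was not tested.

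CGS (scaffold979.1) had 263 and 314 CPM at 68 DAA, against 430 and 466 CPM at 20 DAA. Both red libraries were below both green ones. The mean was 289 ± 35.9 CPM at 68 DAA and 448 ± 25.3 CPM at 20 DAA (SD, n = 2 each), and 64.5% of the green level was left. On the log2 scale this is -0.63 ± 0.14 (± standard error), and its edgeR adjusted p of 0.0111 was just short of the limit of 0.01. By limma-voom it was -0.65 with a 95% interval from -0.97 to -0.32 and an adjusted p of 0.00492, which passed. The likelihood ratio test of edgeR and DESeq2 called the gene as well, with adjusted p = 0.000751 and 0.000761. It was lower at 68 DAA in every alternative tried, with log2 fold changes from -0.90 to -0.44, and the adjusted p lay between 0.000751 and 0.0815.

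Spermidine synthase, spdsyn in the study's list, makes a polyamine with an aminopropyl group that comes from S-adenosylmethionine, the same compound that ethylene synthesis uses. It had 155 and 157 CPM at 68 DAA, against 364 and 330 CPM at 20 DAA, and fell 2.22-fold (-1.15 ± 0.069 on the log2 scale, edgeR adjusted p = 0.000437). The stages stood well apart. Per length, CGS (scaffold979.1) stood at 133 and 142 TPM at 68 DAA, against 256 and 276 TPM at 20 DAA. The ratio of CGS (scaffold979.1) to spdsyn in TPM was 1.06 and 1.25 at 68 DAA, against 0.741 and 0.883 at 20 DAA. The CGS copy was thus the more abundant of the 2 transcripts per length in both red libraries and the less abundant in both green ones. Of the 4 genes in the list of signalling and methionine use (the 3 TCTR1 genes and spdsyn), 1 fell, none rose and 3 were not called, beside 32% lower and 25.7% higher over all tested genes. Their median log2 fold change was 0.13, beside -0.04 over all tested genes.

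The 4 genes kept their order of level per length at both stages. At 68 DAA the means were 137 ± 6.52 TPM for CGS (scaffold979.1), 91.3 ± 1.71 TPM for ERF6, 7.12 ± 2.37 TPM for ETR4 and 0.0198 ± 0.0281 TPM for CGS (scaffold991.4) (SD, n = 2). At 20 DAA they were 266 ± 14.2 TPM, 87.3 ± 2.72 TPM, 21.5 ± 0.98 TPM and 0.0504 ± 0.0713 TPM in the same order of genes. No neighbours in this order overlapped between genes at either stage. The steps changed in size. CGS (scaffold979.1) was 1.43 and 1.58 times ERF6 at 68 DAA, against 3.001 and 3.097 times at 20 DAA, and 15.1 and 26.1 times ETR4 at 68 DAA, against 12.3 and 12.4 times at 20 DAA.

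Among the tested genes, the CPM of ETR4 ranked close to the middle in red fruits and in the upper part in green ones. CPM is not divided by length, so these ranks also reflect the length of the gene models. ETR4 was at or above 53.3% of the tested genes at 68 DAA, against 76.1% at 20 DAA. ERF6 was at or above 87.7% at 68 DAA, against 83.7% at 20 DAA. CGS (scaffold979.1) was at or above 97.3% at 68 DAA, against 98.7% at 20 DAA.

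**Figure D4:**
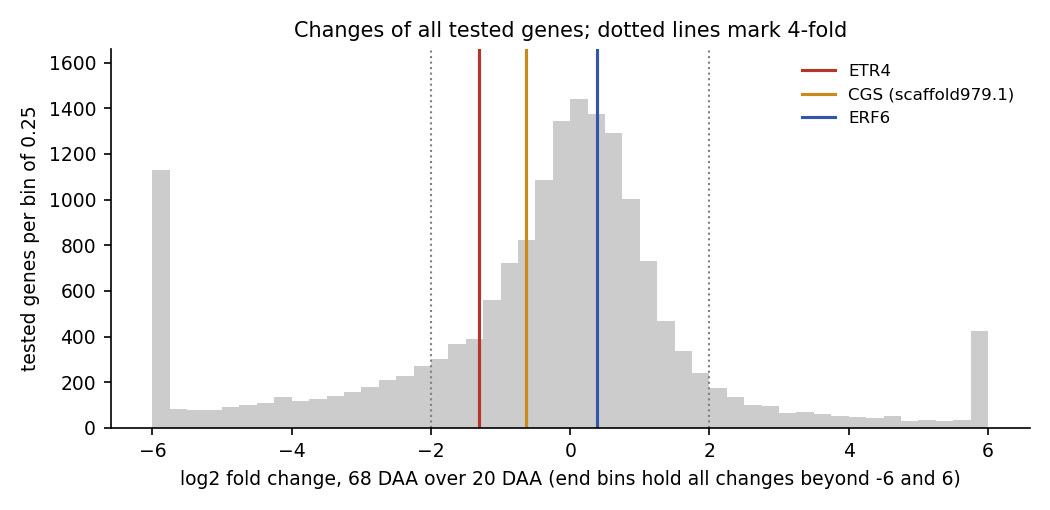
Histogram of the log2 fold change of the 17160 tested genes, 68 DAA over 20 DAA, in bins of 0.25, with the values of ETR4, CGS (scaffold979.1) and ERF6 as lines. The bins at both ends also hold every gene beyond -6 or 6. All 3 lie inside the dotted 4-fold lines at -2 and 2, at -1.31, -0.63 and 0.38.

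The changes of CGS (scaffold979.1) and ERF6 were small beside those of other genes on the study's list, and that of ETR4 stood near the middle. By size of log2 fold change, ETR4 ranked 17, CGS (scaffold979.1) 27 and ERF6 29 among the 32 tested genes of the list, and the 3 TCTR1 genes took ranks 30 to 32. Among all tested genes, 62.0% changed less than ETR4, 37.4% less than CGS (scaffold979.1) and 24.3% less than ERF6. Regulators of tomato ripening that act with or upstream of ethylene were read as a chosen set of 8 genes of the list. They were MADS-RIN in 2 copies, LeSPL-CNR, AP2, NAC1, TAGL1, FUL1 and FUL2. Of these, 7 were tested, 4 rose and 2 fell, beside 25.7% higher and 32% lower over all tested genes. Their log2 fold changes ran from -7.27 for LeSPL-CNR to 9.47 for a MADS-RIN copy, in both directions, with a median of 1.30 beside -0.04 over all tested genes. The abundant MADS-RIN copy (scaffold1021.30), a MADS-box factor that tomato needs for ripening, stood at 9.47 on the log2 scale (edgeR adjusted p = 7.43e-06). NAC1 was not called, at 1.21 (edgeR adjusted p = 0.0114), but passed in 5 of the 17 alternatives. The list also holds MADS-box protein 1, which was left out of this set. It was called as lower at 68 DAA (log2 fold change -3.095, edgeR adjusted p = 1.09e-05).

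For each tested gene the most similar patterns were sought among the other 31 tested genes of the list, by the Euclidean distance of log2 CPM over the 4 libraries after each gene was centred on its mean. Such a distance over 4 libraries of 2 stages mostly reflects the fold change. The nearest to ETR4 were Beta-hex, a beta-hexosaminidase that trims glycans, at a distance of 0.265 and a log2 fold change of -1.23, and spdsyn at 0.453. Of all tested genes, 136 (0.793%) lay nearer to ETR4 than Beta-hex and 694 (4.04%) nearer than spdsyn. The nearest to CGS (scaffold979.1) were spdsyn at 0.568 and TCTR1 (scaffold1138.14) at 0.671, with 3012 (17.6%) and 3953 (23.0%) of all tested genes nearer. The nearest to ERF6 were TCTR1 (scaffold1138.13) at 0.314 and TCTR1 (scaffold824.28) at 0.413, with 2096 (12.2%) and 3338 (19.4%) nearer.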

How the data were processed

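Raw counts per gene were deposited by the authors for each library, made from paired reads with Trimmomatic 0.36, Hisat2 2.1.0 and HTSeq-count 0.11.0 (union mode; strand setting not given in the sources used here), together with the gene models (CM334, version 1.6), whose coordinates are a deposited annotation of another kind than counts. All 35884 models hold coding exons only, so read pairs that lie wholly in untranslated regions were not counted, and lengths are coding lengths. HTSeq categories that name no gene (31.7% to 38.2% of entries) were left out.

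TMM factors were computed in edgeR 4.0.16 (R 4.3.3) before and again after the filter, and 17160 genes were tested. Standard errors come from log2 CPM (prior count 2) of 2 libraries per stage. The procedure was tested on simulated counts for this comparison (17160 genes). It called 40 of 100 genes changed 2-fold and 96 of 100 changed 4-fold, so changes near 2-fold were often missed there. It also called 11 unchanged genes. Only 200 genes were changed in the simulation, whereas 57.7% of the tested genes were called in the data. The Benjamini-Hochberg adjustment depends on this share, so the rates of the simulation do not carry over directly to the data. limma 3.58.1 and DESeq2 1.42.0 were alternatives. Names came from the study's homolog list, and homolog types for all 4 genes from RefSeq. The genes, lists and tests were chosen with earlier results of these data known. The genes named in the text are the 4 genes, the genes of the lists, the 2 nearest listed genes by pattern and MADS-box protein 1. Sequences and promoter motifs were not analysed here, nor were the Serrano libraries.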

Additional observations from a re-analysis of the deposited data

How the results depend on the processing

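With FDR under 0.01, 1 of the 4 genes was called, and 2 were called with upper quartile normalization, library totals, the likelihood ratio test, DESeq2, limma-voom, no filter or the replicate block. Over all genes, the likelihood ratio test called 11121 of 17160 tested genes, library totals 9487 of 17194 and no filter 12518 of 27380. Upper quartile normalization, DESeq2, limma-voom and the replicate block called between 9830 and 10466 genes, of 17140 to 17160 tested. With FDR under 0.05, 3 of the 4 genes were called, and the number called over all tested genes at that limit was not computed. With 1 library left out in turn, 0 to 2 were called, 0 being without replicate 2 at 20 DAA. The gene gained was CGS (scaffold979.1) in all 7 alternatives, with log2 fold changes of -0.66 (upper quartile), -0.90 (library totals), -0.63 (likelihood ratio), -0.61 (DESeq2), -0.65 (limma-voom), -0.65 (no filter) and -0.64 (replicate block, adjusted p = 0.00955 from edgeR). With 1 library left out, it ranged from -0.74 to -0.44, ERF6 from 0.32 to 0.51 and ETR4 from -1.52 to -1.03. The count of all called genes ranged from 6041 to 11057 and that of genes higher at 68 DAA from 2290 to 5125 in those fits, with the lowest values when a library at 20 DAA was left out. The share of called genes that were lower at 68 DAA was 55.4% with TMM and 67.0% with library totals. The labels give the replicate numbers to different collections of fruits, and the deviations of same-numbered libraries correlated at 0.025 across genes, so the number was not read as a pairing. TCTR1 (scaffold1138.14), at -0.016, changed sign with RLE factors (0.0018), DESeq2 (0.0024), thinned libraries (0.056), and in 3 of the fits with a library left out (from -0.15 to 0.066). TCTR1 (scaffold824.28) ranged from -0.070 to 0.63 with 1 library left out, and was at -0.070 without replicate 2 at 68 DAA. The causes were not tested. The direction of ETR4, CGS (scaffold979.1) and ERF6 was the same in all 17 alternatives. Of these, TMM factors computed only before the filter were added after seeing the data. Exons and coding exons have the same length, so the alternative of coding length left the CGS shares as they were. Depth limits CGS (scaffold991.4), with 6 counts in all.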

Other observations

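The TCTR1 genes scaffold1138.13 and scaffold1138.14 are neighbours on chromosome 10 of CM334, on the same strand and 980 bp apart, and the study lists the same homolog for both. Their coding lengths are 1890 and 1305 bp. The second held 74.3% and 65.0% of the counts of both at 68 DAA, against 73.6% and 75.6% at 20 DAA. Summed, they stood at 52.1 and 56.5 CPM at 68 DAA, against 48.1 and 54.1 CPM at 20 DAA, so that the stages overlapped.

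Few counts were common among gene models of the kind that CGS (scaffold991.4) belongs to. Of the 7518 models from ab initio prediction, 62.3% had at most 6 counts over the 4 libraries, against 26.9% of the other models. The gene model nearest to any of the 4 genes lay 5591 bp after CGS (scaffold979.1) and had no count in any library.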
